A study of Mus musculus with 30 samples.

Results

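The stem and progenitor cell regulators described here are 10 genes, *Cd34*, *Kit*, *Flt3*, *Meis1*, *Hoxa9*, *Hlf*, *Mecom*, *Procr*, *Gata2* and *Myb*, chosen by symbol, with earlier results of these data known. All 10 were found in both deposited count tables, among 13353 genes of the bone marrow (BM) table and 17059 genes of the table for adipose tissue macrophages (ATMs). The libraries came from whole BM cells and from F4/80+ cells sorted from visceral adipose tissue of mice given a competitive transplant, in which CD45.2+ BM of *Shp2*E76K/+;LysM-Cre+ donors was mixed with the same number of Boy/J CD45.1+ BM cells and injected after irradiation with 700 and 400 cGy. E76K is an activating allele of *Ptpn11*, which encodes SHP2, and LysM-Cre switches it on in myeloid cells. Each tissue had 5 groups of 3 libraries, and the labels state 3 mice per group, of both sexes and about 12 to 14 weeks old. The labels do not say at which stage that age applied, and the study's methods give another range for recipients at irradiation. The WT group held wild-type recipients, and the other groups held leptin-deficient, obese *Ob/Ob* recipients. From 8 weeks after transplantation these received, for 30 days, vehicle (Vehicle), the GLP-1R agonist beinaglutide at 3 mg/kg s.c. (GLP-1R agonist group), antibody against IL-17A at 200 μg per mouse i.p. 3 times a week (anti–IL-17A), or both agents (Combo). Boy/J competitor cells and irradiation were thus shared by all groups per the labels, which name a single strain, C57BL/6J, as genotype for every sample and no donor per sample, so that mutant, competitor and surviving host cells could not be told apart in these libraries. The study's legend names WT HSC/Ps for the comparison in ATMs, so that a difference in donor within Vehicle vs WT cannot be told apart from one in recipient there. No vehicle, start or length of treatment is given for the WT group. In both tissues, a difference in injections or time of harvest within Vehicle vs WT thus cannot be told apart from one in recipient.

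Hematopoietic stem cells stay in the marrow through signals from niche cells and through transcription factors that hold back differentiation. KIT and FLT3 are receptor tyrosine kinases for stem cell factor and FLT3 ligand, and CD34 and PROCR (the endothelial protein C receptor) are surface proteins used to sort stem and progenitor cells. GATA2 and MYB are transcription factors needed to form and expand these cells, MEIS1 and HOXA9 are homeobox partners that drive many acute myeloid leukemias, and HLF and MECOM mark and maintain the most primitive stem cells. None of the 10 genes is restricted to blood progenitors. CD34 is also carried by endothelial and adipose stromal cells, PROCR and MECOM by endothelium, and KIT and GATA2 by mast cells.

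Because *Cd34* and *Myb* moved together in BM and *Procr* and *Kit* moved in opposite directions there, the bases upstream of these 4 genes are shown (RefSeq, GRCm38.p6, 5′ to 3′ on the gene's strand, ending before the first base of the gene in GENCODE and RefSeq). Capitals mark AACNG, the core letters bound by MYB, on either strand.
*Procr*, chr2:155750967-155751116, plus strand: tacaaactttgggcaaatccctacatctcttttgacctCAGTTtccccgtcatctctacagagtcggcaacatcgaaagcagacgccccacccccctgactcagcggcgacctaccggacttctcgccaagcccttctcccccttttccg
*Kit*, chr5:75574737-75574915, plus strand: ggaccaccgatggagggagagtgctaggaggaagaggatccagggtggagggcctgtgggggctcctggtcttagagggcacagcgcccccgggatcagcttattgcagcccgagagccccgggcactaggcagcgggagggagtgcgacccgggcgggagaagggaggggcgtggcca
*Cd34*, chr1:194938571-194938818, plus strand: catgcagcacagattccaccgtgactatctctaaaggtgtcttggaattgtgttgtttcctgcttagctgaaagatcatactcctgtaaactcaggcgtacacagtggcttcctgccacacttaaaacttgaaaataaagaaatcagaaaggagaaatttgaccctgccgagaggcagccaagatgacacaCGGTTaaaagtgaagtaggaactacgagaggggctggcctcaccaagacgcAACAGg
*Myb*, chr10:21160985-21161234, minus strand: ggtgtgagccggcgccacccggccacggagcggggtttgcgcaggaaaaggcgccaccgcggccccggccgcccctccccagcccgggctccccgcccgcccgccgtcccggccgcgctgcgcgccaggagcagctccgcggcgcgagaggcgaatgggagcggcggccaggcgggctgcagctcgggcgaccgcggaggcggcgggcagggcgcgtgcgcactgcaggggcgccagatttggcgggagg

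The windows differed in base composition, from 46.4% G and C upstream of *Cd34* to 81.2% upstream of *Myb*, counted over the 250 bases before the RefSeq start. In windows of that length the letters AACNG were found in 8 of the 13 windows of the 10 genes and in 74.2% of 32851 windows of all genes, so that a match is common. GATAA, the GATA core, was found in 3 of 13 windows (*Hoxa9* and both starts of *Mecom*) against 22.6% of all. TGACAG, bound by MEIS proteins, was found in 1 window, of *Mecom*, against 15.9%. Letters of the interferon-stimulated response element were found in 1 window, also of *Mecom*, against 2.98%. TGATTNAT (HOX with PBX), TTANGTAA (HLF) and TTCNNNGAA (STAT) were found in no window of the 10 genes, against 2.82%, 2.06% and 7.02% of all windows. Both strands were searched, and matches are letters, not measured binding.

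All are protein-coding genes and lie in GRCm38 (GENCODE M21) as follows: *Cd34* at chr1:194938819-194961279, *Kit* at chr5:75574916-75656722, *Flt3* at chr5:147330741-147400489, *Meis1* at chr11:18879817-19018985, *Hoxa9* at chr6:52223100-52231089, *Hlf* at chr11:90336536-90390895, *Mecom* at chr3:29951296-30548008, *Procr* at chr2:155751117-155755471, *Gata2* at chr6:88193891-88207032 and *Myb* at chr10:21124935-21160984. Reads on several genes were counted for each of them and without regard to strand, so exons shared with another gene matter. 18.3% of the exon bases of *Meis1* are shared with *Gm16140* on the opposite strand and *Gm37818* on the same strand, and its counts are uncertain to that extent. For *Myb* the share is 6.26% (*Gm26577*, antisense), for *Cd34* 2.03%, for *Hoxa9* 1.52% and for *Mecom* 0.652%, and the other 5 genes share none.

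BM libraries held about 31086200 to 39925500 counts and ATM libraries about 24876100 to 45300300. Levels are given as CPM, the usual unit of counts relative to library size, after trimmed mean (TMM) scaling, and libraries of a group varied far less in BM (biological coefficient of variation 3.51%) than in ATMs (32.5%), so that smaller differences passed the test in BM. No replicates agreed within counting noise: the mean chi-square per gene between replicates was 2.02 to 4.21 in BM and 11.7 to 26.8 in ATMs, except that WT replicate 1 of BM stood apart from the other WT libraries, at 26.6 and 34.8. Results that change without that library are given with and without it. Across replicates, a gene rose or fell where its adjusted p was below 0.05 (edgeR quasi-likelihood test, Benjamini-Hochberg over all genes of the table), and it was called where the log2 fold change was also beyond 1.

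In BM, 6 of the 10 genes (*Kit*, *Hoxa9*, *Hlf*, *Mecom*, *Procr* and *Myb*) differed among the 5 groups with a range of group means beyond 1 on the log2 scale, against 37.8% of all genes. *Procr* had the widest range, 5.66, followed by *Kit*, 1.48, *Mecom*, 1.45, *Hoxa9*, 1.28, *Hlf*, 1.23, and *Myb*, 1.17. Per length of exons, the level in WT was highest for *Myb*, 21.1 CPM per kilobase of exon (RPKM), followed by *Kit*, 6.88, *Cd34*, 5.21, *Gata2*, 5.15, and *Flt3*, 2.12. *Hlf*, *Hoxa9*, *Meis1*, *Procr* and *Mecom* lay between 0.0408 and 0.474 RPKM, and the 3 WT libraries held as few as 17 reads of *Mecom* and 12 of *Procr*. In bulk BM, fewer cells of a type and less RNA per cell cannot be told apart.

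**Figure D1:**
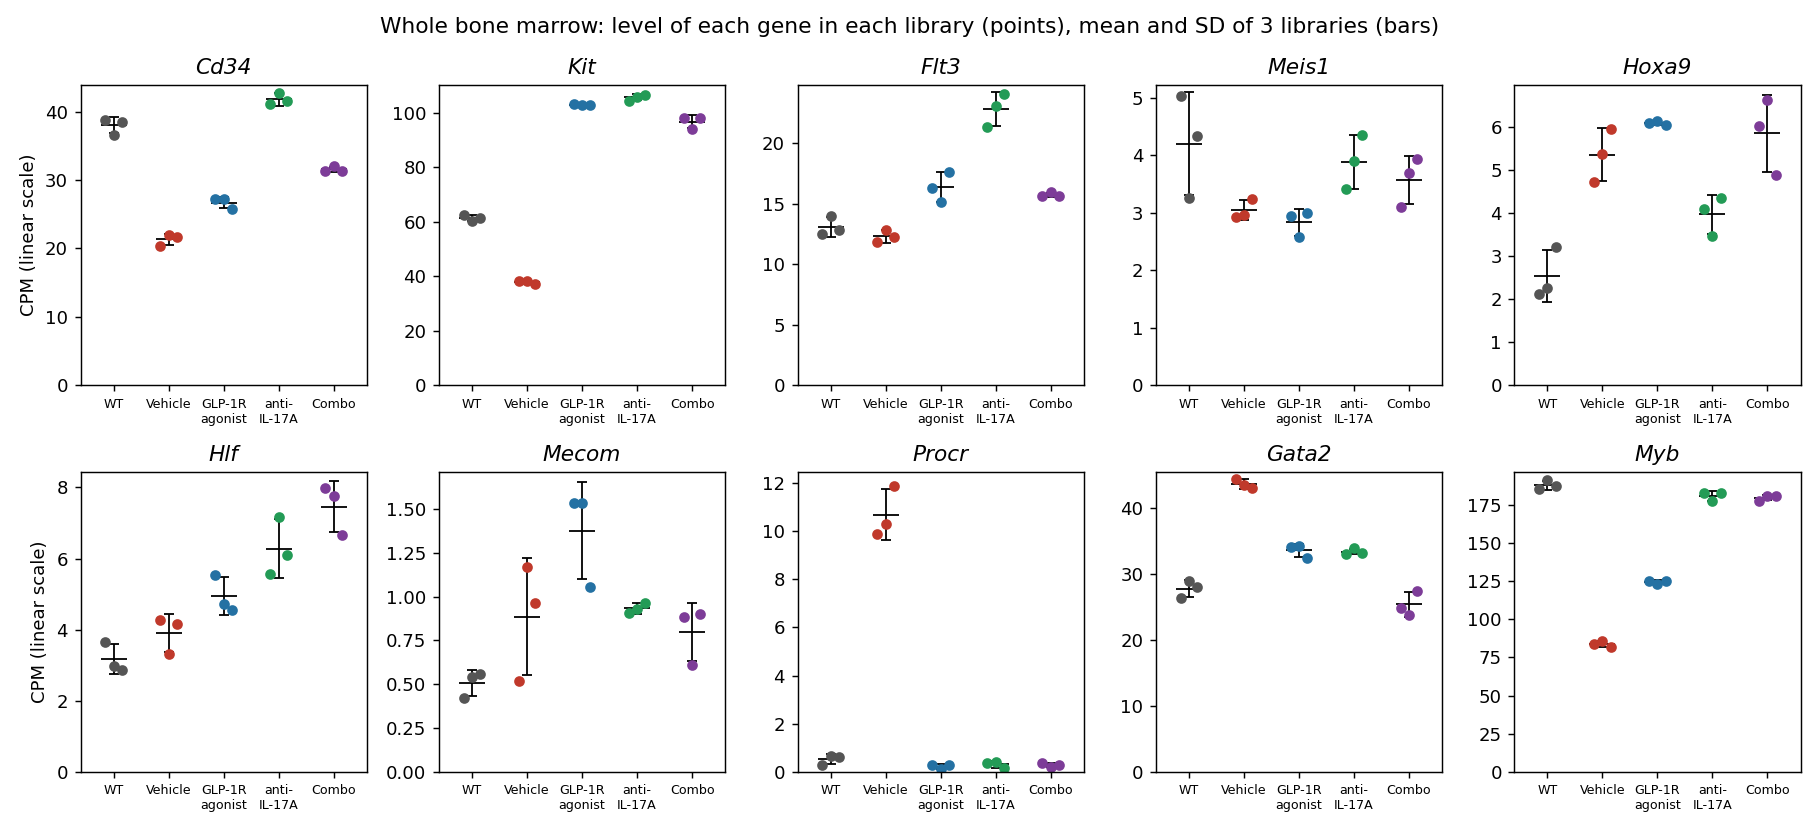
Level of each of the 10 genes in the 15 BM libraries, in CPM on a linear axis from 0, with 1 point per library and the mean and SD of 3 libraries per group. *Procr* lay at 9.87 to 11.9 CPM in Vehicle and at 0.101 to 0.655 in all other libraries, and *Kit* and *Myb* were lowest in Vehicle.

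Among surface receptors, *Kit* stood at 62.4, 60.3 and 61.2 CPM in WT and 38.3, 38.1 and 36.9 in Vehicle. With treatment it stood at 103, 103 and 103 under the GLP-1R agonist, 104, 106 and 107 under anti–IL-17A and 97.9, 93.9 and 98.1 in Combo. Vehicle libraries were thus the lowest and all treated libraries exceeded every WT library, with no overlap between those 3 levels. *Kit* fell in Vehicle vs WT (log2 fold change -0.70 ± 0.0377, adjusted p = 7.79e-20). Relative to Vehicle it rose 2.72-fold under the GLP-1R agonist (1.44 ± 0.0364, adjusted p = 2.36e-31), 2.79-fold under anti–IL-17A (1.48 ± 0.0364, adjusted p = 1.08e-31) and 2.56-fold in Combo (1.35 ± 0.0367, adjusted p = 3.23e-30). It was also higher in Combo than in WT (0.66 ± 0.0344, adjusted p = 2.83e-20). These 3 treated groups share the Vehicle libraries as their control.

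*Procr* showed the opposite order. Its level was 9.87, 10.3 and 11.9 CPM in Vehicle, from 303, 334 and 345 reads, and 0.298, 0.655 and 0.618 CPM in WT, from 12, 23 and 20 reads. The treated libraries lay at 0.101 to 0.413 CPM, from 4 to 16 reads each, which overlapped WT. *Procr* rose 20.7-fold in Vehicle vs WT (4.37 ± 0.222, adjusted p = 1.04e-20). Relative to Vehicle it fell under the GLP-1R agonist (-5.66 ± 0.257, adjusted p = 2.55e-22), under anti–IL-17A (-5.07 ± 0.239, adjusted p = 1.03e-21) and in Combo (-5.19 ± 0.248, adjusted p = 1.35e-21). With so few reads in treated mice, the size of these falls depends on counting noise. Combo and WT did not pass the test for this gene (-0.82 ± 0.389, adjusted p = 0.0569), but without WT replicate 1 the difference passed (-1.13, adjusted p = 0.00784), as it did without Combo replicate 1 (-1.08, adjusted p = 0.0368), with DESeq2 (-0.83, adjusted p = 0.0343) and on total counts without scaling factors (-0.96, adjusted p = 0.024). Endothelial markers, whose cells also carry PROCR, had a summed level (10 of 10 genes, none at 0) of 67.2 to 73.3 CPM in WT, 62.5 to 65.8 in Vehicle, 33.9 to 37.6 under the GLP-1R agonist, 55 to 58.4 under anti–IL-17A and 46.4 to 51.1 in Combo. Gene by gene, 6 of 10 rose and 3 fell (median log2 fold change 0.89) in Vehicle vs WT. Relative to Vehicle, 2 of 10 rose and 7 fell (median log2 fold change -0.79) under the GLP-1R agonist, 2 of 10 rose and 4 fell (median log2 fold change -0.58) under anti–IL-17A and 3 of 10 rose and 7 fell (median log2 fold change -1.04) in Combo. Most of these markers that passed were thus higher in Vehicle, as *Procr* was, although their sum was highest in WT, and their part in the result was not tested.

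*Cd34* stood at 38.8, 36.7 and 38.6 CPM in WT and 20.4, 21.9 and 21.7 in Vehicle. It stood at 27.2, 27.2 and 25.7 under the GLP-1R agonist, 41.1, 42.8 and 41.5 under anti–IL-17A and 31.3, 32 and 31.4 in Combo. From low to high the order was Vehicle, GLP-1R agonist, Combo, WT and anti–IL-17A, and no neighbours in this order overlapped. *Cd34* fell in Vehicle vs WT (-0.83 ± 0.0522, adjusted p = 9.81e-18) and rose relative to Vehicle by 0.32 ± 0.0537 (log2 ± SE) under the GLP-1R agonist, 0.97 ± 0.0516 under anti–IL-17A and 0.56 ± 0.0534 in Combo (adjusted p = 1.25e-06, 5.81e-20 and 2.50e-12). None of these passed the fold limit, which anti–IL-17A did on total counts without scaling factors (1.14).

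*Flt3* differed less between WT and Vehicle, at 12.5, 14 and 12.8 and 11.8, 12.9 and 12.2 CPM, and these libraries overlapped (-0.089 ± 0.0772, adjusted p = 0.295), although on total counts without scaling factors the difference passed (-0.21, adjusted p = 0.0123). Anti–IL-17A libraries were the highest, 21.3, 23.1 and 24 CPM, and did not overlap those of the GLP-1R agonist, 16.3, 15.2 and 17.6, or of Combo, 15.7, 15.9 and 15.6, while the latter 2 groups overlapped each other. Relative to Vehicle the log2 fold changes were 0.41 ± 0.0751, 0.89 ± 0.0727 and 0.36 ± 0.0761 in GLP-1R agonist, anti–IL-17A and Combo (adjusted p = 6.87e-06, 3.53e-14 and 6.83e-05), and on total counts without scaling factors anti–IL-17A passed the fold limit (1.06). Combo was lower than anti–IL-17A alone (-0.54 ± 0.0697, adjusted p = 1.93e-08).

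Among transcription factors, *Myb* stood at 186, 191 and 187 CPM in WT and 84, 85.8 and 81.7 in Vehicle. Treated mice had 125, 123 and 125 CPM under the GLP-1R agonist, 183, 177 and 183 under anti–IL-17A and 178, 181 and 181 in Combo. Vehicle was the lowest group, the GLP-1R agonist was intermediate, and anti–IL-17A and Combo libraries overlapped each other just below WT. *Myb* fell 2.24-fold in Vehicle vs WT (-1.17 ± 0.0289, adjusted p = 1.27e-31) and rose 1.49-fold, 2.16-fold and 2.15-fold relative to Vehicle in the GLP-1R agonist, anti–IL-17A and Combo groups (0.57 ± 0.0293, adjusted p = 1.38e-20; 1.11 ± 0.0289, adjusted p = 8.07e-31; 1.10 ± 0.029, adjusted p = 1.09e-30). Combo exceeded the GLP-1R agonist alone (0.53 ± 0.0278, adjusted p = 3.83e-20) and did not differ detectably from anti–IL-17A alone (-0.0094 ± 0.0273, adjusted p = 0.796). On total counts without scaling factors, however, *Myb* was lower in Combo than under anti–IL-17A alone (-0.20, adjusted p = 8.06e-08). The small difference of Combo from WT (-0.064 ± 0.0273, adjusted p = 0.0332) no longer passed without WT replicate 2 (adjusted p = 0.189) or without Combo replicate 1 or 2 (adjusted p = 0.108 and 0.0521), or when only these groups were fitted (adjusted p = 0.0691). It passed in the other 9 of 13 alternatives, and over all of them the value ran from -0.21 to -0.043, with adjusted p from 1.32e-08 to 0.189.

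*Gata2* took the reverse order, with 26.4, 28.9 and 28.1 CPM in WT and 44.5, 43.5 and 43.1 in Vehicle. The levels were 34.2, 34.2 and 32.4 under the GLP-1R agonist, 33.1, 33.9 and 33.3 under anti–IL-17A and 24.9, 23.8 and 27.4 in Combo. Vehicle exceeded every other library, the groups given 1 agent overlapped each other above WT, and Combo overlapped WT. The log2 fold change was 0.65 ± 0.0525, adjusted p = 2.10e-14, in Vehicle vs WT, and -0.38 ± 0.0514, -0.39 ± 0.0514 and -0.78 ± 0.0534 in the 3 treated groups vs Vehicle (adjusted p = 2.23e-08, 1.32e-08 and 1.47e-16). Combo was lower than each agent alone (-0.40 ± 0.0538, adjusted p = 1.42e-08, vs the GLP-1R agonist, and -0.40 ± 0.0538, adjusted p = 5.16e-08, vs anti–IL-17A). Its difference from WT in Combo (-0.13 ± 0.055, adjusted p = 0.0335) did not pass without WT replicate 2 or 3 or Combo replicate 1 or 2, nor when only these groups were fitted (adjusted p from 0.0739 to 0.2). It passed in the other 8 of 13 alternatives, and over all of them the value ran from -0.28 to -0.086, with adjusted p from 2.72e-05 to 0.2. Markers of mast cells and basophils, which express *Gata2*, were also highest in Vehicle: their summed level (9 of 9 genes, led by *Prss34*, *Hdc* and *Mcpt8*) was 1024 to 1092 CPM in WT, 1815 to 1882 in Vehicle, 501 to 509 under the GLP-1R agonist, 751 to 755 under anti–IL-17A and 782 to 798 in Combo. Their part in the result was not tested. *Kit*, which mast cells also express, was lowest in Vehicle.

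*Hoxa9* stood at 2.11, 2.25 and 3.22 CPM in WT and 4.72, 5.37 and 5.96 in Vehicle, without overlap, a 2.13-fold rise (1.09 ± 0.151, adjusted p = 2.90e-08). Without WT replicate 1 the log2 fold change was 0.97 (adjusted p = 4.33e-08), just short of the fold limit, and on total counts without scaling factors it was 0.97. Treated libraries stayed above WT: the levels were 6.05 to 6.14 CPM under the GLP-1R agonist, 3.46 to 4.35 under anti–IL-17A and 4.88 to 6.63 in Combo, each above the highest WT library. Relative to Vehicle, *Hoxa9* fell under anti–IL-17A (-0.43 ± 0.141, adjusted p = 0.00611), and this passed neither without anti–IL-17A replicate 2 (adjusted p = 0.0518) nor on total counts without scaling factors (adjusted p = 0.091). The other treated groups overlapped Vehicle or lay just above it and did not pass the test (0.19 ± 0.133, adjusted p = 0.201, and 0.13 ± 0.135, adjusted p = 0.392), although the GLP-1R agonist did on total counts without scaling factors (0.42, adjusted p = 0.00423). In Combo it remained 2.34-fold above WT (1.22 ± 0.148, adjusted p = 1.48e-09).

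*Meis1*, the partner of *Hoxa9*, moved little and the other way, with 5.02, 3.25 and 4.33 CPM in WT and 2.93, 2.96 and 3.24 in Vehicle (-0.47 ± 0.157, adjusted p = 0.00671). Without WT replicate 1, the highest library, this fall did not pass (-0.31, adjusted p = 0.0906). Treated libraries lay at 2.57 to 4.35 CPM. Against Vehicle, anti–IL-17A passed the test (0.36 ± 0.158, adjusted p = 0.0404), a call that leaving out any 1 of 4 libraries ended, with adjusted p from 0.0746 to 0.176 (Vehicle replicates 1 and 2, anti–IL-17A replicates 2 and 3), as did DESeq2 (adjusted p = 0.0562).

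*Hlf* stood at 3.65, 2.96 and 2.88 CPM in WT, 4.27, 3.3 and 4.17 in Vehicle and 5.55, 4.73 and 4.55 under the GLP-1R agonist. It stood at 5.57, 7.18 and 6.09 under anti–IL-17A and 7.98, 7.75 and 6.65 in Combo. Group means increased in that order, and WT overlapped Vehicle and anti–IL-17A overlapped Combo. The difference between Vehicle and WT did not pass the test (0.29 ± 0.147, adjusted p = 0.0673) but did without WT replicate 1 (adjusted p = 0.0158) or Vehicle replicate 2 (adjusted p = 0.0212). *Hlf* rose relative to Vehicle under anti–IL-17A (0.69 ± 0.133, adjusted p = 1.57e-05) and in Combo (0.93 ± 0.132, adjusted p = 4.62e-08), where the value passed the fold limit without Vehicle replicate 1 (1.00) or Combo replicate 3 (1.01). The rise under the GLP-1R agonist (0.34 ± 0.137, adjusted p = 0.0245) did not pass without Vehicle replicate 2 (adjusted p = 0.17) or GLP-1R agonist replicate 1 (adjusted p = 0.139). Combo exceeded WT 2.34-fold (1.23 ± 0.133, adjusted p = 8.57e-11) and the GLP-1R agonist 1.51-fold (0.59 ± 0.124, adjusted p = 5.47e-05).

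*Mecom* was sparsely counted in BM, with 17, 19 and 18 reads in the WT libraries and 16 to 61 in the others. Its level was 0.423, 0.541 and 0.557 CPM in WT, 0.521, 1.17 and 0.965 in Vehicle and 1.53, 1.54 and 1.06 under the GLP-1R agonist, and 0.608 to 0.964 in the remaining groups. Vehicle replicate 1 lay among the WT libraries and the other Vehicle libraries above them. *Mecom* passed the test in Vehicle vs WT (0.82 ± 0.331, adjusted p = 0.0247), which it did not without WT replicate 1 (0.69, adjusted p = 0.0858), Vehicle replicate 2 (adjusted p = 0.183) or Vehicle replicate 3 (adjusted p = 0.0608) or on total counts without scaling factors (adjusted p = 0.0553), while without Vehicle replicate 1 it was 1.09 (adjusted p = 0.00431). It also passed under the GLP-1R agonist vs Vehicle (0.64 ± 0.282, adjusted p = 0.042), a call that ended without Vehicle replicate 1 or 3 or GLP-1R agonist replicate 1 or 2, with values from 0.37 to 0.68 in those fits, and with DESeq2 (adjusted p = 0.0569). Combo was below the GLP-1R agonist (-0.79 ± 0.283, adjusted p = 0.0128), but not past the threshold without GLP-1R agonist replicate 2 (adjusted p = 0.053) or Combo replicate 2 (adjusted p = 0.0717).

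Set side by side, most of the 10 genes passed the test in most BM comparisons, as did most genes of the table. In Vehicle vs WT, 4 of the 10 genes rose and 4 fell, where 37.8% of all genes rose and 38.8% fell, and 3 were called (*Hoxa9*, *Procr*, *Myb*), against 19.5% of all genes. Under the GLP-1R agonist vs Vehicle, 6 of the 10 genes rose and 2 fell, where 36.5% of all genes rose and 36.3% fell, and 2 were called (*Kit*, *Procr*), against 16.7% of all genes. Under anti–IL-17A vs Vehicle, 6 of the 10 genes rose and 3 fell, where 36.4% of all genes rose and 36.6% fell, and 3 were called (*Kit*, *Procr*, *Myb*), against 16.1% of all genes. These shares are near those of the table, so the counts say little about the 10 genes as a group. With Combo vs Vehicle, 5 of the 10 genes rose and 2 fell, where 37.9% of all genes rose and 35.8% fell, and 3 were called (*Kit*, *Procr*, *Myb*), against 17.7% of all genes. In Combo vs WT, 4 of the 10 genes rose and 3 fell, where 36.1% of all genes rose and 37.2% fell, and 2 were called (*Hoxa9*, *Hlf*), against 14.3% of all genes. Against single agents no gene was called with edgeR, or with DESeq2, while 7 and 6 of the 10 genes had an unadjusted p below 0.05 and 6 and 5 passed the adjusted p. In Combo vs the GLP-1R agonist, 3 of the 10 genes rose and 3 fell, where 36.1% of all genes rose and 35.3% fell, and 0 were called, against 13.2% of all genes. In Combo vs anti–IL-17A, 1 of the 10 genes rose and 4 fell, where 30.9% of all genes rose and 21.7% fell, and 0 were called, against 5.67% of all genes. The direction of *Cd34* in Combo vs the GLP-1R agonist (0.24 ± 0.0508) was reversed on total counts without scaling factors (-0.018, adjusted p = 0.758). The median log2 fold change of the 10 genes was 0.10 in Vehicle vs WT and 0.29 in Combo vs Vehicle, beside -0.017 and 0.021 over all genes.

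For each gene, the most similar patterns over the 15 BM libraries were sought by Pearson's r of log2 CPM among 11803 genes (11804 for *Mecom*) with a mean of at least 1 CPM. They are a description, since libraries of a group lie close together and the groups set most of each r. The pattern of *Kit* was most like those of *Arrb1* (r = 0.995) and *Fam168b* (r = 0.99), the pattern of *Myb* like those of *Tmcc1* (r = 0.997) and *Clec12a* (r = 0.992), and the pattern of *Cd34* like those of *Btg2* (r = 0.985) and *Fosb* (r = 0.984). *Btg2* and *Fosb* are early response genes. *Procr* was most like *Fbxw17* (r = 0.983) and *Lgals9* (r = 0.982), and *Lgals9*, which encodes galectin-9, stood at 261, 837 and 237 CPM on average in WT, Vehicle and Combo. *Gata2* was most like *Il2rb* (r = 0.953) and *Slc24a3* (r = 0.953), *Hoxa9* like *Fbxo34* (r = 0.967) and *Rnps1* (r = 0.959), *Hlf* like *Mcu* (r = 0.96) and *Bscl2* (r = 0.958) and *Flt3* like *Col1a2* (r = 0.918) and *Runx2* (r = 0.911). The closest genes to *Meis1* and *Mecom* were less alike, *Synj2bp* (r = 0.873) and *Ap1s2* (r = 0.836) and *Mta3* (r = 0.895) and *Rnf180* (r = 0.887). Between members, r over these 15 libraries was 0.921 for *Cd34* and *Myb*, and -0.916 for *Kit* and *Procr*.

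Other genes of these pathways were read from lists chosen with earlier results known. For niche ligands and their receptors in Vehicle vs WT, 1 of 7 measured genes rose, 5 fell and 1 did not pass the test (median log2 fold change -1.43). *Cxcl12*, the chemokine that retains stem cells in marrow, fell (-1.75 ± 0.0459, adjusted p = 1.07e-30), as did *Kitl*, the ligand of KIT (-1.51 ± 0.196, adjusted p = 8.34e-09), *Angpt1* (-1.43 ± 0.129, adjusted p = 1.34e-11) and its receptor *Tek* (-1.47 ± 0.425, adjusted p = 0.00206). *Kit* and its ligand thus both fell in Vehicle. Both rose under the GLP-1R agonist vs Vehicle (*Kitl* 1.45 ± 0.197, adjusted p = 2.36e-08). In Combo, *Kitl* remained below WT (-1.68 ± 0.197, adjusted p = 8.55e-10) while *Kit* exceeded WT. Between Combo and Vehicle, 3 of 7 measured genes rose, 3 fell and 1 did not pass the test (median log2 fold change -0.068), with *Tek* up (1.54 ± 0.425, adjusted p = 0.00143) and *Flt3l*, the ligand of FLT3, down (-1.22 ± 0.0854, adjusted p = 2.94e-16), while *Flt3* itself rose.

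Among the partners of GATA2 in the stem cell transcription factor heptad, 1 of 6 measured genes rose, 4 fell and 1 did not pass the test (median log2 fold change -0.23) in Vehicle vs WT, and in Combo vs Vehicle 6 of 6 measured genes rose, 0 fell and 0 did not pass the test (median log2 fold change 0.40). *Tal1*, the partner that is also a master regulator of red cells, moved most (-1.16 ± 0.0371, adjusted p = 1.09e-27, in Vehicle vs WT, and 0.99 ± 0.0375, adjusted p = 4.44e-25, in Combo vs Vehicle), so that *Gata2* and *Tal1* moved in opposite directions in both comparisons. *Fli1* and *Erg*, ETS factors, rose in Combo vs Vehicle (0.67 ± 0.0389, adjusted p = 3.06e-18, and 0.48 ± 0.0444, adjusted p = 1.59e-12).

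For partners and cofactors of HOXA and MEIS in Vehicle vs WT, 9 of 16 measured genes rose, 2 fell and 5 did not pass the test (median log2 fold change 0.36). *Hoxa10*, the neighbour of *Hoxa9* in the cluster, was called higher (1.61 ± 0.406, adjusted p = 5.00e-04) and *Sox4* lower (-2.27 ± 0.0756, adjusted p = 2.94e-26). In Combo vs Vehicle, 5 of 16 measured genes rose, 5 fell and 6 did not pass the test (median log2 fold change 0.024), and *Hoxa10* fell (-1.71 ± 0.418, adjusted p = 3.82e-04) where *Hoxa9* did not. *Hoxa10* was sparsely counted, with 15, 8 and 7 reads in WT, 12, 36 and 31 in Vehicle and 7, 8 and 11 in Combo.

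For stem cell surface and identity genes in Vehicle vs WT, 4 of 13 measured genes rose, 5 fell and 4 did not pass the test (median log2 fold change -0.075), and in Combo vs Vehicle 4 of 13 measured genes rose, 5 fell and 4 did not pass the test (median log2 fold change -0.30). *Ly6a*, which encodes the stem cell antigen Sca-1 and is induced by interferon, changed most. Its level was 29.7, 30.4 and 32.5 CPM in WT, 425, 427 and 429.6 in Vehicle and 9.81, 11.2 and 11.1 in Combo (3.79 ± 0.0406, adjusted p = 1.84e-44, and -5.32 ± 0.047, adjusted p = 2.05e-47). *Ly6a* and *Procr* thus shared Vehicle as by far their highest group. Also called were *Prdm16* in Vehicle vs WT (1.14 ± 0.318, adjusted p = 0.00154) and *Slamf1*, *Esam* and *Robo4* in Combo vs Vehicle (-1.51 ± 0.19, adjusted p = 3.90e-09; -1.02 ± 0.264, adjusted p = 7.44e-04; -1.06 ± 0.41, adjusted p = 0.0201). Among commitment factors, 3 of 9 measured genes rose, 5 fell and 1 did not pass the test (median log2 fold change -0.15) in Vehicle vs WT, with *Ebf1*, the B cell factor, called lower (-1.74 ± 0.0609, adjusted p = 2.64e-26) and *Gfi1b* higher (1.04 ± 0.0481, adjusted p = 8.40e-22). Between Combo and Vehicle, 6 of 9 measured genes rose, 3 fell and 0 did not pass the test (median log2 fold change 0.24), with *Gfi1*, the granulocyte factor, called higher (1.08 ± 0.0424, adjusted p = 1.51e-24) and *Ebf1* lower (-1.33 ± 0.0777, adjusted p = 9.49e-19).

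Markers of other marrow cells differed between the same groups. The summed level of early lymphoid markers (8 of 8 genes) was 565 to 589 CPM in WT, 132 to 139 in Vehicle, 63.4 to 64.8 under the GLP-1R agonist, 216 to 219 under anti–IL-17A and 66.9 to 70.2 in Combo. Dendritic cell markers (9 of 9, led by *Bst2*) summed to 306 to 345 CPM in WT, 776 to 802 in Vehicle, 75.4 to 82.1 under the GLP-1R agonist, 125 to 132 under anti–IL-17A and 58.8 to 64.3 in Combo. Immature granulocyte markers (6 of 6, led by *Mpo*) summed to 5458 to 6037 CPM in WT, 4638 to 4776 in Vehicle, 5548 to 5639 under the GLP-1R agonist, 7330.1 to 7498 under anti–IL-17A and 10991 to 11150.5 in Combo. The early lymphoid sum was thus highest in WT and the immature granulocyte sum in Combo. The dendritic sum was highest in Vehicle, whereas of its single genes 2 of 9 rose and 5 fell (median log2 fold change -0.80) in Vehicle vs WT. Macrophage markers (9 of 9, led by *Lyz2*) summed to 13196 to 13473 CPM in WT, 4112 to 4147 in Vehicle, 3531 to 3552 under the GLP-1R agonist, 6578 to 6632 under anti–IL-17A and 6513 to 6614 in Combo, but of the single genes 4 of 9 rose and 4 fell (median log2 fold change 0.012) in Vehicle vs WT and 2 of 9 rose and 6 fell (median log2 fold change -0.56) in Combo vs Vehicle. Mature neutrophil markers (7 of 7, led by *S100a9*) summed to 73626 to 83411 CPM in WT, 79479.7 to 82376 in Vehicle, 52837 to 53448 under the GLP-1R agonist, 59799.7 to 60723 under anti–IL-17A and 83289 to 85707 in Combo, while under anti–IL-17A vs Vehicle 5 of 7 rose and 2 fell (median log2 fold change 0.74). Erythroid markers (7 of 9 in the table) summed to 1322 to 1424 CPM in WT, 1104 to 1124 in Vehicle, 2458 to 2492 under the GLP-1R agonist, 1539 to 1588 under anti–IL-17A and 1090.5 to 1104 in Combo, and were highest under the GLP-1R agonist. Cell cycle genes (8 of 8) varied less, from 2511 CPM in Vehicle to 3280.2 in Combo. T and NK cell markers (7 of 7) lay between 28.4 CPM in Combo and 82.7 under the GLP-1R agonist, and megakaryocyte markers (8 of 8) between 61.7 and 129.9 in the same groups. Adipose stroma markers (9 of 10 in the table) lay between 176 CPM under the GLP-1R agonist and 311 in Combo. Adipocyte (3 of 5) and mesothelial markers (1 of 5) reached at most 60.7 and 1.78 CPM in a BM library. None of these lists had a gene at 0 in all libraries of a group. The part of these cells in the results was not tested.

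In ATMs the same genes were read in cells sorted for F4/80. The defining gene of the sort, *Adgre1*, was present in every library, at 192 to 229.6 CPM in WT, 30.2 to 52.4 in Vehicle and 375 to 894 in treated mice. Other cell types were present as well. Macrophage markers (9 of 9 genes, led by *Lyz2*) summed to 4081 to 4339 CPM in WT, 2313 to 2497 in Vehicle, 9905 to 10296 under the GLP-1R agonist, 14632 to 14868 under anti–IL-17A and 10419 to 10475 in Combo. Markers of adipose stroma and preadipocytes (10 of 10, led by *Dcn*) summed to 14567 to 15326, 5437 to 5775, 22430.5 to 22844, 14059 to 14330.4 and 12427 to 12625 CPM in the same order, more than the macrophage list in all groups but anti–IL-17A. Endothelial markers (10 of 10) summed to 4602 to 4779 CPM in Vehicle and 846 to 1130.3 elsewhere. The ATM libraries are therefore described as sorted F4/80+ fractions rather than as pure macrophages.

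All 10 genes but *Flt3* and *Hoxa9*, that is 8 of 10, differed among the 5 ATM groups with a range beyond 1, against 53.3% of all genes. Per length of exons, *Cd34* was the highest in WT, 69.5 RPKM, followed by *Procr*, 23.8, and *Gata2*, 10. In Vehicle, *Procr* was the highest, 83.1 RPKM, followed by *Cd34*, 34.1, *Gata2*, 15.8, and *Kit*, 10.5. *Myb*, the highest in BM, stood at 0.419 RPKM in WT ATMs and 0.541 in Vehicle. BM and ATM levels come from separately scaled tables.

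**Figure D2:**
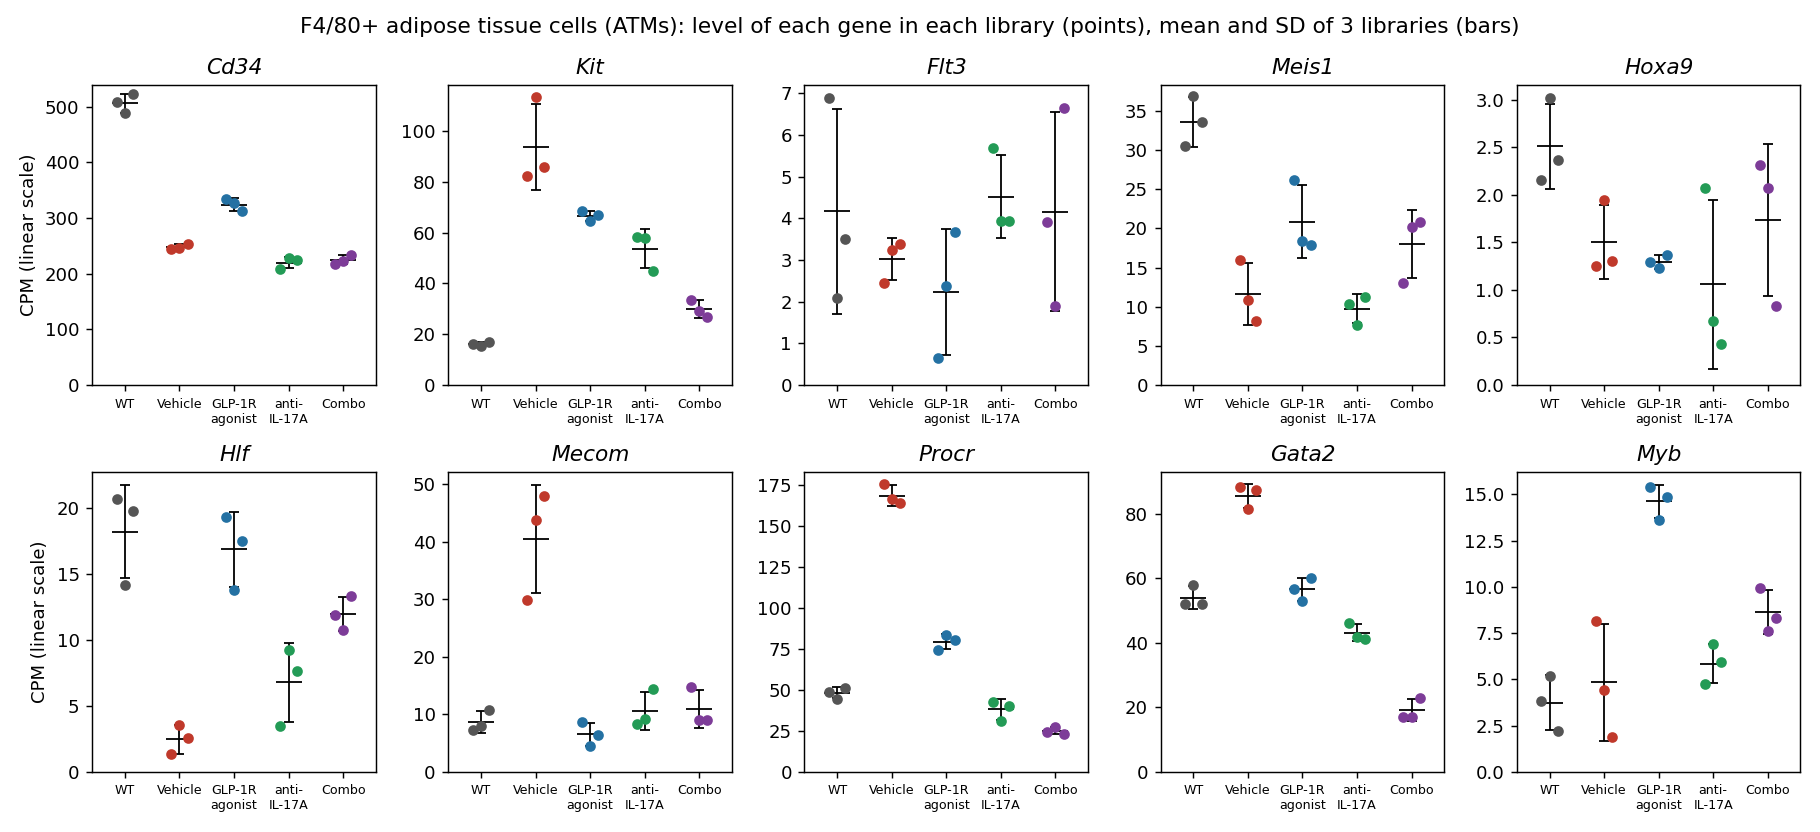
Level of each of the 10 genes in the 15 ATM libraries, in CPM on a linear axis from 0, with 1 point per library and the mean and SD of 3 libraries per group. *Kit*, *Mecom* and *Procr* were highest in Vehicle, *Cd34*, *Meis1* and *Hlf* in WT, and *Flt3* and *Hoxa9* overlapped between most groups.

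*Kit* stood at 16.3, 15.5 and 16.9 CPM in WT and 82.3, 113 and 85.8 in Vehicle. It stood at 68.4, 64.6 and 66.9 under the GLP-1R agonist, 58.3, 58 and 44.9 under anti–IL-17A and 33.7, 29 and 27 in Combo. No 2 groups overlapped, and Combo was the treated group nearest to WT. *Kit* rose 5.77-fold in Vehicle vs WT (2.53 ± 0.141, adjusted p = 3.74e-10) and fell in Combo vs Vehicle (-1.65 ± 0.136, adjusted p = 5.43e-08). The falls under the GLP-1R agonist (-0.49 ± 0.132, adjusted p = 0.00529) and anti–IL-17A (-0.80 ± 0.132, adjusted p = 9.14e-05) stayed within the fold limit, and the former did not pass on total counts without scaling factors (-0.28, adjusted p = 0.0911). Combo was below each agent alone (-1.16 ± 0.134, adjusted p = 4.68e-06, vs the GLP-1R agonist, which was -0.96 on total counts without scaling factors, and -0.85 ± 0.133, adjusted p = 1.61e-04, vs anti–IL-17A). Mast cell and basophil markers (9 of 9, led by *Tpsb2*, *Cma1* and *Hdc*, none at 0 in a group) summed to 259 to 266 CPM in WT, 1734 to 1892 in Vehicle, 1709 to 1746 under the GLP-1R agonist, 1880.5 to 1952 under anti–IL-17A and 939.6 to 960.4 in Combo. They were thus lowest in WT and next lowest in Combo, as *Kit* was. Under each single agent their sum overlapped Vehicle, whereas *Kit* fell under both, and the part of these cells in the result was not tested.

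*Procr* stood at 48.6, 44.7 and 51.5 CPM in WT and 176, 167 and 164 in Vehicle. It stood at 74.3, 83.4 and 80.4 under the GLP-1R agonist, 42.9, 31.1 and 40.2 under anti–IL-17A and 24.6, 27.6 and 23.2 in Combo. Vehicle was the highest group without overlap, the GLP-1R agonist lay above WT, and anti–IL-17A and Combo lay below WT. It rose 3.5-fold in Vehicle vs WT (1.81 ± 0.112, adjusted p = 1.35e-09) and fell relative to Vehicle under the GLP-1R agonist (-1.09 ± 0.109, adjusted p = 5.00e-07), under anti–IL-17A (-2.15 ± 0.113, adjusted p = 1.80e-10) and in Combo (-2.75 ± 0.116, adjusted p = 1.45e-11). The fall under the GLP-1R agonist came to -0.87 on total counts without scaling factors. Combo was lower than the GLP-1R agonist alone (-1.66 ± 0.112, adjusted p = 1.02e-08) and than anti–IL-17A alone (-0.60 ± 0.111, adjusted p = 6.75e-04).

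*Mecom* was also highest in Vehicle, with 7.25, 7.89 and 10.8 CPM in WT and 29.9, 43.7 and 47.9 in Vehicle. All treated libraries lay at 4.53 to 14.7 CPM and overlapped WT. It rose 4.69-fold in Vehicle vs WT (2.23 ± 0.305, adjusted p = 1.41e-05) and fell relative to Vehicle in the GLP-1R agonist, anti–IL-17A and Combo groups (-2.63 ± 0.31, adjusted p = 3.01e-06; -1.93 ± 0.3, adjusted p = 5.06e-05; -1.90 ± 0.3, adjusted p = 7.63e-05). Endothelial markers, which were highest in Vehicle as well, summed to 948 to 959 CPM in WT, 4602 to 4779 in Vehicle, 1101 to 1130.3 under the GLP-1R agonist, 926 to 995 under anti–IL-17A and 846 to 949 in Combo. Of these, *Esam*, which encodes a junction protein of endothelium, had 173 CPM in WT and 1210.3 in Vehicle on average, and *Pecam1* 234 and 472. Not every gene of the list moved this way, and *Tek* was called lower in Vehicle vs WT (-1.82 ± 0.137, adjusted p = 1.47e-08). The part of endothelial cells in the changes of *Procr* and *Mecom* was not tested.

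*Gata2* stood at 51.9, 58 and 52.1 CPM in WT and 88.1, 81.3 and 87.3 in Vehicle. It stood at 56.6, 53 and 60 under the GLP-1R agonist, 46.1, 41.9 and 41.2 under anti–IL-17A and 17.1, 17.1 and 23 in Combo. Combo was the lowest group, below every other library, and the GLP-1R agonist overlapped WT. The rise in Vehicle vs WT was 0.66 ± 0.113, adjusted p = 1.22e-04, and on total counts without scaling factors it was 0.23 (adjusted p = 0.0956). In Combo *Gata2* fell 4.49-fold vs Vehicle (-2.17 ± 0.118, adjusted p = 3.32e-10), 2.83-fold vs WT (-1.50 ± 0.116, adjusted p = 3.97e-08), 2.97-fold vs the GLP-1R agonist (-1.57 ± 0.116, adjusted p = 2.84e-08) and 2.26-fold vs anti–IL-17A (-1.18 ± 0.115, adjusted p = 1.16e-06). It was the only one of the 10 genes called in all 4 of these comparisons. Under anti–IL-17A it fell to just within the fold limit (-0.99 ± 0.113, adjusted p = 1.97e-06), a limit it passed without Vehicle replicate 2 (-1.02) or anti–IL-17A replicate 1 (-1.04), and under the GLP-1R agonist by less (-0.60 ± 0.113, adjusted p = 3.41e-04).

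*Cd34*, abundant in this fraction, stood at 508, 488 and 523 CPM in WT and 245, 246 and 254 in Vehicle. It stood at 334, 326 and 313 under the GLP-1R agonist, 209, 228 and 224 under anti–IL-17A and 218, 224 and 234 in Combo, and anti–IL-17A and Combo overlapped. It fell in Vehicle vs WT (-1.03 ± 0.0474, adjusted p = 2.86e-11), at the edge of the fold limit (-0.99 when only these groups were fitted), and in Combo vs WT (-1.17 ± 0.0475, adjusted p = 1.61e-11). Relative to Vehicle it rose under the GLP-1R agonist (0.39 ± 0.0471, adjusted p = 4.26e-06). The small falls under anti–IL-17A (-0.17 ± 0.0471, adjusted p = 0.00527) and in Combo (-0.14 ± 0.0471, adjusted p = 0.0225) became rises on total counts without scaling factors (0.17, adjusted p = 0.00418, and 0.28, adjusted p = 9.83e-05), so no direction is given for them. Adipose stroma markers, listed above, were lower in Vehicle than in WT, as *Cd34* was, and were highest under the GLP-1R agonist. Mesothelial markers (5 of 5, led by *Upk3b*) summed to 1124 to 1189.9 CPM in WT and 48.8 to 57.7 in Vehicle. The part of these cells was not tested.

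*Hlf* stood at 20.7, 14.2 and 19.8 CPM in WT and 1.33, 3.54 and 2.57 in Vehicle. It stood at 19.4, 13.8 and 17.5 under the GLP-1R agonist, 3.46, 9.27 and 7.63 under anti–IL-17A and 11.9, 10.7 and 13.3 in Combo. Only the anti–IL-17A group overlapped Vehicle. *Hlf*, which also belongs to the clock-controlled PAR bZIP factors of non-blood tissues, fell 7.37-fold in Vehicle vs WT (-2.88 ± 0.377, adjusted p = 8.91e-06) and rose relative to Vehicle in the GLP-1R agonist, anti–IL-17A and Combo groups (2.77 ± 0.376, adjusted p = 1.39e-05; 1.46 ± 0.365, adjusted p = 0.00313; 2.28 ± 0.371, adjusted p = 1.01e-04). Combo and WT did not differ beyond the test's threshold (-0.61 ± 0.342, adjusted p = 0.175), but did when only these groups were fitted (-0.56, adjusted p = 0.0375).

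*Meis1* stood at 30.5, 36.9 and 33.6 CPM in WT and 16, 10.9 and 8.16 in Vehicle, a 2.88-fold fall (-1.53 ± 0.258, adjusted p = 1.18e-04). Treated libraries lay at 17.9 to 26.2 CPM under the GLP-1R agonist, 7.63 to 11.2 under anti–IL-17A and 13 to 20.8 in Combo, all below the WT libraries. The rise under the GLP-1R agonist (0.84 ± 0.255, adjusted p = 0.0119) did not pass without Vehicle replicate 3 (adjusted p = 0.0564) or GLP-1R agonist replicate 1 (adjusted p = 0.0665), or when only these groups were fitted (adjusted p = 0.0517). The value in Combo vs Vehicle (0.62 ± 0.255, adjusted p = 0.0556) passed without Vehicle replicate 1 (0.92, adjusted p = 0.00873) or Combo replicate 1 (0.81, adjusted p = 0.0208), and on total counts without scaling factors (1.04), with DESeq2 (0.60) and with at least 10 counts in every library (0.65).

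*Myb*, *Flt3* and *Hoxa9* were low in ATMs. *Myb* stood at 3.8, 5.2 and 2.23 CPM in WT, 8.17, 4.42 and 1.89 in Vehicle and 15.4, 13.6 and 14.9 under the GLP-1R agonist. It stood at 4.75, 6.9 and 5.92 under anti–IL-17A and 9.92, 7.59 and 8.34 in Combo. The GLP-1R agonist libraries exceeded all others, and *Myb* rose 3.02-fold there vs Vehicle (1.60 ± 0.416, adjusted p = 0.00441). It was called higher in Combo vs WT (1.20 ± 0.413, adjusted p = 0.0297), but not without WT replicate 1 or 3 or without Combo replicate 1 or 3 (adjusted p = 0.0697, 0.118, 0.0837 and 0.0544). In Combo vs Vehicle it did not pass (0.83 ± 0.411, adjusted p = 0.11) but did without Vehicle replicate 1 (1.45, adjusted p = 0.00741) or on total counts without scaling factors (1.25, adjusted p = 0.0198). *Flt3* lay at 0.66 to 6.89 CPM and *Hoxa9* at 0.433 to 3.01 over all 15 libraries, with spread between replicates as wide as between groups, and neither passed the test in any of the 7 comparisons.

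**Figure D3:**
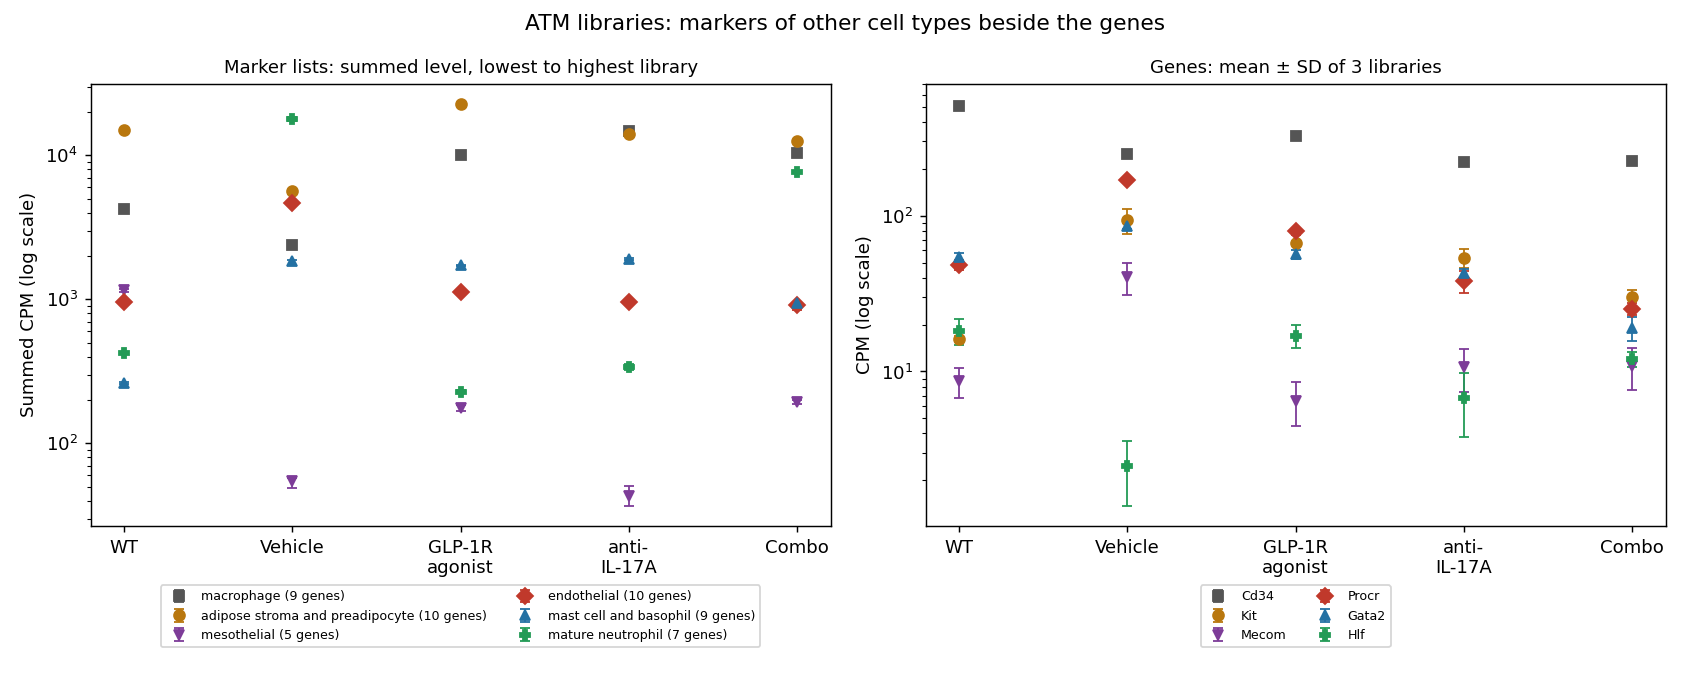
Summed CPM of 6 marker lists (left, mean with the lowest and highest library) and CPM of 6 of the genes (right, mean ± SD of 3 libraries) in the 5 ATM groups, on log axes. The endothelial sum, *Procr* and *Mecom* were highest in Vehicle, while the mast cell and basophil sum and *Kit* were lowest in WT.

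By comparison, the ATM counts were as follows. In Vehicle vs WT, 4 of the 10 genes rose and 3 fell, where 24.3% of all genes rose and 32.6% fell, and 6 were called (*Cd34*, *Meis1* and *Hlf* lower, *Kit*, *Mecom* and *Procr* higher), against 35.4% of all genes. Under the GLP-1R agonist vs Vehicle, 4 of the 10 genes rose and 4 fell, where 31.8% of all genes rose and 22% fell, and 4 were called (*Hlf* and *Myb* higher, *Mecom* and *Procr* lower), against 31.8% of all genes. Under anti–IL-17A vs Vehicle, 1 of the 10 genes rose and 5 fell, where 33.1% of all genes rose and 25% fell, and 3 were called (*Hlf* higher, *Mecom* and *Procr* lower), against 35.5% of all genes. *Procr* and *Mecom* were the genes called lower with each treatment, against the same Vehicle libraries. With Combo vs Vehicle, 1 of the 10 genes rose and 5 fell, where 25% of all genes rose and 23.7% fell, and 5 were called (*Hlf* higher, *Kit*, *Mecom*, *Procr* and *Gata2* lower), against 26.4% of all genes. In Combo vs WT, 2 of the 10 genes rose and 4 fell, where 17.8% of all genes rose and 23.2% fell, and 3 were called (*Myb* higher, *Cd34* and *Gata2* lower), against 21.6% of all genes. In Combo vs the GLP-1R agonist, 0 of the 10 genes rose and 4 fell, where 15.2% of all genes rose and 24.6% fell, and 3 were called (*Kit*, *Procr* and *Gata2*, all lower), against 18.7% of all genes. *Gata2* was the gene called in Combo against each single agent. In Combo vs anti–IL-17A, 1 of the 10 genes rose and 3 fell, where 10.7% of all genes rose and 17.9% fell, and 1 was called (*Gata2*, lower), against 14.2% of all genes. TMM scaling left the median gene at -0.21 in Vehicle vs WT, 0.19 under the GLP-1R agonist, 0.17 under anti–IL-17A and 0 in Combo vs Vehicle, and total counts without scaling factors moved it to -0.65, 0.41, 0.52 and 0.41. Beside these, the medians of the 10 genes were -0.046, -0.32, -0.38 and 0.036.

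In ATMs, among niche ligands and receptors in Vehicle vs WT, 1 of 8 measured genes rose, 2 fell and 5 did not pass the test (median log2 fold change -0.49), with *Tek* called lower (-1.82 ± 0.137, adjusted p = 1.47e-08) while the summed endothelial markers were higher. In Combo vs Vehicle *Cxcl12*, which adipose stromal cells secrete, was called higher (1.95 ± 0.0552, adjusted p = 1.13e-13) and *Kitl* lower (-1.11 ± 0.107, adjusted p = 3.28e-07), and 3 of 8 measured genes rose, 1 fell and 4 did not pass the test (median log2 fold change 0.54). Among the heptad partners, 0 of 6 measured genes rose, 1 fell and 5 did not pass the test (median log2 fold change 0.24) in Vehicle vs WT, none of them called, and *Fli1* was the gene that passed (-0.54 ± 0.0932, adjusted p = 1.43e-04). Between Combo and Vehicle, 2 of 6 measured genes rose, 0 fell and 4 did not pass the test (median log2 fold change 0.18), with *Lyl1* called (1.03 ± 0.378, adjusted p = 0.0344).

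For HOXA and MEIS partners in Vehicle vs WT, 2 of 16 measured genes rose, 5 fell and 9 did not pass the test (median log2 fold change -0.22), and *Hoxa7* was among those called lower (-1.43 ± 0.267, adjusted p = 2.82e-04). The member *Meis1* was called lower too. In Combo vs Vehicle 5 of 16 measured genes rose, 4 fell and 7 did not pass the test (median log2 fold change 0.46), with *Hoxa5* called lower (-1.36 ± 0.337, adjusted p = 0.00338) and *Mllt3* higher (1.01 ± 0.341, adjusted p = 0.0229). For stem cell surface and identity genes, 6 of 15 measured genes rose, 5 fell and 4 did not pass the test (median log2 fold change 0.49) in Vehicle vs WT and, in Combo vs Vehicle, 4 of 15 measured genes rose, 9 fell and 2 did not pass the test (median log2 fold change -1.26). The genes with the largest changes were *Ly6a*, *Robo4*, *Esam* and *Adgrg1*, with log2 fold changes of 2.95 ± 0.0375, 2.85 ± 0.168, 2.81 ± 0.077 and 2.56 ± 0.0786 in Vehicle vs WT and -3.24 ± 0.038, -3.21 ± 0.171, -2.82 ± 0.077 and -2.69 ± 0.0789 in Combo vs Vehicle. *Robo4* and *Esam* are endothelial as well as stem cell genes and stand on both lists. Among commitment factors, 2 of 9 measured genes rose, 1 fell and 6 did not pass the test (median log2 fold change 0.12) in Vehicle vs WT, with *Spi1*, the master factor of myeloid cells (2.51 ± 0.0484, adjusted p = 5.71e-16), and *Cebpe*, a factor of late neutrophils (2.71 ± 0.512, adjusted p = 3.12e-04), called higher. Between Combo and Vehicle, 4 of 9 measured genes rose, 1 fell and 4 did not pass the test (median log2 fold change 0.43), with *Gfi1b*, *Ikzf1* and *Gfi1* called higher (3.08 ± 1.22, adjusted p = 0.0477; 1.32 ± 0.144, adjusted p = 1.48e-06; 1.09 ± 0.339, adjusted p = 0.0149). *Gfi1b* had 0, 21 and 0 reads in the Vehicle libraries, so that its change rests on few reads there.

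Further markers in ATMs moved with the groups. Mature neutrophil markers (7 of 7, led by *S100a8*) summed to 419 to 429.8 CPM in WT, 17231 to 18394 in Vehicle, 224 to 236 under the GLP-1R agonist, 326 to 356 under anti–IL-17A and 7591 to 7798 in Combo. Immature granulocyte markers (6 of 6) reached 384 to 403 CPM in Combo and at most 29.9 elsewhere. Dendritic cell markers (9 of 9, led by *Bst2*, 2 of them at 0 in all Vehicle libraries) summed to 1691 to 1789 CPM in Vehicle and at most 325 elsewhere, while of the single genes 3 of 9 rose and 3 fell (median log2 fold change -0.47) in Vehicle vs WT and 3 of 9 rose and 3 fell (median log2 fold change 0.98) under the GLP-1R agonist vs Vehicle. Erythroid markers (7 of 9 in the table) ranged from 1195 CPM under anti–IL-17A to 6805 in Vehicle, cell cycle genes (8 of 8) from 171 in WT to 687 in Combo, and adipocyte markers (5 of 5, led by *Lpl*) from 313 in Vehicle to 3605 under anti–IL-17A. Under anti–IL-17A vs Vehicle, 1 of 5 rose and 0 fell (median log2 fold change -0.32) among the adipocyte markers and 2 of 7 rose and 3 fell (median log2 fold change -0.78) among the erythroid ones. T and NK cell markers (7 of 7) reached 624 to 642 CPM in Combo, megakaryocyte markers (8 of 8, 1 of them at 0 in all GLP-1R agonist libraries) 275 to 319.6 under anti–IL-17A and early lymphoid markers (3 of 8 in the table, led by *Ebf1*) 219.8 to 229.6 under the GLP-1R agonist. Their part in the results was not tested.

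The effects in BM and ATMs were compared as a difference of log2 fold changes in 1 fit of the 30 libraries. This fit shared the estimate of spread between tissues, although libraries varied far more in ATMs. The SE of a difference can thus be too small: for *Hoxa9* in Vehicle vs WT it was 0.555, and 0.635 for the effect in ATMs alone. In the alternatives, 1 of which used a weight per tissue, the adjusted p of that difference was 0.00606 to 0.0203. In Vehicle vs WT, 7 of the 10 genes were called different between the tissues, against 28.7% of 13076 genes, and in Combo vs Vehicle 5, against 28.1%. *Kit* differed most in both. It fell in BM and rose in ATMs in Vehicle vs WT (difference, ATMs minus BM, 3.23 ± 0.142, adjusted p = 1.26e-16) and did the reverse in Combo vs Vehicle (-2.96 ± 0.14, adjusted p = 5.86e-16). *Hlf* fell in ATMs in Vehicle vs WT, with no passing change in BM (-3.18 ± 0.41, adjusted p = 2.38e-07). *Procr* moved the same way in both tissues, up in Vehicle and down in Combo, by more in BM (-2.56 ± 0.264, adjusted p = 5.03e-09, and 2.48 ± 0.304, adjusted p = 1.08e-07). *Gata2* rose in both tissues in Vehicle vs WT, with a difference that did not pass the test (0.014 ± 0.128, adjusted p = 0.935), and fell further in ATMs in Combo (-1.34 ± 0.13, adjusted p = 1.42e-09). *Cd34* fell in both tissues in Vehicle vs WT, with a difference within the fold limit (-0.19 ± 0.0612, adjusted p = 0.00899).

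**Figure D4:**
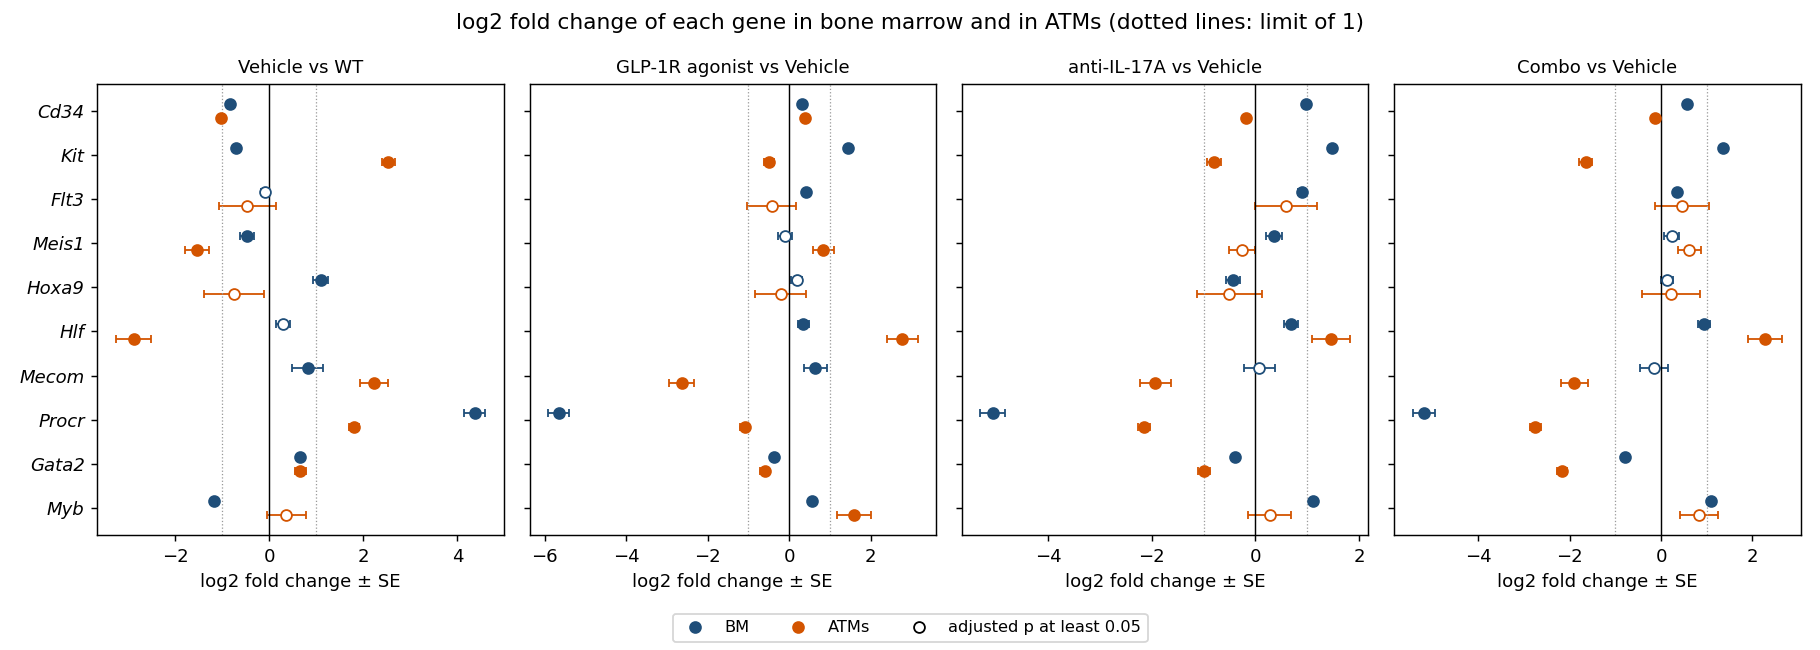
log2 fold change ± SE of the 10 genes in BM (blue) and ATMs (orange) for Vehicle vs WT and for each treated group vs Vehicle, with open circles where the adjusted p was at least 0.05. *Kit* lay on opposite sides of 0 in the tissues in all 4 comparisons, and *Procr* on the same side.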

How the data were processed

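RNA-seq counts were taken from 2 deposited tables, 1 of 15 BM libraries and 1 of 15 ATM libraries. Per the study's methods and processing notes, the authors aligned reads with STAR (2.7.2a) to mm10 and made gene counts with featureCounts (2.0.1) on GENCODE annotation, without strand and with reads counted for each gene they overlapped. The smallest total of a gene was 55 counts in BM and 54 in ATMs, so low genes were already absent, by a rule that was not given in the sources used here.

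From these counts as deposited, groups were compared with edgeR (4.0.16, R 4.3.3): filterByExpr, which removed 0 genes, TMM scaling, a robust quasi-likelihood fit of all 15 libraries of a tissue, and Benjamini-Hochberg adjustment over all genes of the table. Genes were called at an adjusted p below 0.05 and a log2 fold change beyond 1. Vehicle was compared with WT, every treated group with Vehicle, and Combo also with WT and single agents, and for tissues the difference of effects over 13076 genes in both tables. SE values are those implied by the F test. CPM used TMM library sizes, and RPKM the merged exon length of GENCODE M21, so exon lengths and shared exons are those of M21. The members and all gene lists were chosen with earlier results of these data known. Of each pathway list at most 4 called genes with the largest change were named, or at most 3 that passed the adjusted p where none was called, and of each marker list up to 3 of the most abundant genes. Some genes that this rule would name are not reported here. Likeness used log2 CPM with a prior count of 2. Alternatives used DESeq2 (1.42.0), limma (3.58.1), other scalings and filters, the replicate number as a block, only the groups compared, and each library left out in turn. The scripts were tested on simulated data. Depth covers counting error only, and the spread between the libraries of a group set the p-values. In BM that spread was small (biological coefficient of variation 3.51%), and the very low adjusted p values there depend on it.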

Additional observations from a re-analysis of the deposited data

Results flagged for a closer look

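The effect in Vehicle vs WT or in Combo vs Vehicle differed between BM and ATMs, by a test of the difference itself (edgeR, Benjamini-Hochberg over 13076 genes, 3 libraries per group), for 7 of the 10 genes in Vehicle vs WT and 5 in Combo vs Vehicle. Of all 13076 genes, 28.7% and 28.1% were called different in these 2 comparisons. Values are the log2 effect in ATMs minus that in BM, with SE from a spread shared between tissues, which can be too small. *Kit* had the largest difference in Vehicle vs WT, 3.23 ± 0.142, adjusted p = 1.26e-16, and the reverse in Combo vs Vehicle, -2.96 ± 0.14, adjusted p = 5.86e-16, with its libraries in Vehicle below WT in BM and above WT in ATMs, without overlap. *Hlf* gave -3.18 ± 0.41, adjusted p = 2.38e-07 in Vehicle vs WT and 1.39 ± 0.402, adjusted p = 0.00478 in Combo vs Vehicle, and *Mecom* 1.42 ± 0.454, adjusted p = 0.00966 and -1.70 ± 0.436, adjusted p = 0.0017. *Procr* gave -2.56 ± 0.264, adjusted p = 5.03e-09 and 2.48 ± 0.304, adjusted p = 1.08e-07, where the sign comes from a larger change of the same direction in BM. In Vehicle vs WT alone, *Myb* gave 1.55 ± 0.344, adjusted p = 3.97e-04, *Hoxa9* -1.82 ± 0.555, adjusted p = 0.00681 and *Meis1* -1.06 ± 0.318, adjusted p = 0.00633. In Combo vs Vehicle alone, *Gata2* gave -1.34 ± 0.13, adjusted p = 1.42e-09. ATM values of *Hoxa9* and *Myb* rest on low levels, with 60, 95 and 72 reads of *Hoxa9* in WT and 31, 44 and 29 in Vehicle, and neither passed the test within ATMs in Vehicle vs WT. Groups held 3 libraries, too few to test single libraries as outliers.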

How the results depend on the processing

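Of the values of single genes under all alternatives, 1794 kept their side of the adjusted p threshold, with the same direction or, where neither value passed, a change of sign within 1 SE, 49 no longer passed it, 32 newly passed it, 5 that had not passed changed sign by more than their SE, and 3 reversed. The cause was not tested. The reversed values, all under total counts without scaling factors, were *Cd34* in Combo vs the GLP-1R agonist in BM (-0.018) and in ATMs anti–IL-17A vs Vehicle (0.17) and Combo vs Vehicle (0.28). Under that setting 5 genes were called in anti–IL-17A vs Vehicle and 1 in Combo vs the GLP-1R agonist in BM. With at least 10 counts in every library, which removes *Procr* from BM, 1 gene was called in GLP-1R agonist vs Vehicle. Without a fold limit, the BM counts were 10 among the 5 groups, 8 in Vehicle vs WT, 8, 9 and 7 in GLP-1R agonist, anti–IL-17A and Combo vs Vehicle, 7 in Combo vs WT, and 6 and 5 in Combo vs the GLP-1R agonist and vs anti–IL-17A. At this threshold 37.8% of all BM genes rose and 38.8% fell in Vehicle vs WT. In the 3 treated groups vs Vehicle the shares were 36.5% and 36.3%, 36.4% and 36.6%, and 37.9% and 35.8%. These counts thus say little about the 10 genes. In ATMs the counts without a fold limit were 8 and 6 in GLP-1R agonist and anti–IL-17A vs Vehicle, 6 in Combo vs WT and 4 in Combo vs anti–IL-17A. The shares of all genes that rose and fell in the remaining comparisons and in ATMs are given above.

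Leaving out 1 library at a time, BM counts ranged from 2 to 4 in Vehicle vs WT, 3 to 4 in Combo vs Vehicle and 2 to 3 in Combo vs WT, and ATM counts from 4 to 5 in GLP-1R agonist vs Vehicle, 3 to 4 in anti–IL-17A vs Vehicle, 5 to 6 in Combo vs Vehicle, 2 to 4 in Combo vs WT and 1 to 2 in Combo vs anti–IL-17A, with 2 there without anti–IL-17A replicate 2 (*Hlf* added, 1.11) or Combo replicate 1 (*Meis1* added, 1.07). The remaining counts did not move. In a fit chosen after seeing the data, the difference between tissues in Vehicle vs WT without BM WT replicate 1 was called for the same 7 genes.

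Same-numbered libraries were at most weakly alike: the correlation of their deviations ranged from -0.0295 to 0.0523 in BM and -0.0225 to 0.0345 in ATMs. Its median was 0.0083 in BM and 0.0059 in ATMs, beside -0.0042 and -0.0041 between libraries of other numbers. In BM 10 of 15 libraries correlated best with their own number, and in ATMs 5, so that the numbers may carry a weak pairing in BM. With the replicate block the counts of called genes were unmoved, at 3, 2, 3 and 3 in BM and 6, 4, 3 and 5 in ATMs for Vehicle vs WT and the 3 treated groups vs Vehicle.

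Over all genes, total counts changed the share of higher among called genes in BM to 62% (from 45.6%) in GLP-1R agonist vs Vehicle, 60.2% (from 47.5%) in anti–IL-17A vs Vehicle, 19.3% (from 30.7%) in Combo vs WT and 15.2% (from 34.9%) in Combo vs the GLP-1R agonist, and in ATMs to 19.3% (from 35.2%) in Vehicle vs WT, 76% (from 63.1%) and 74.3% (from 53.6%) in anti–IL-17A and Combo vs Vehicle and 41.4% (from 28.7%) in Combo vs the GLP-1R agonist. The filter of 10 counts, which tests fewer genes (11919 and 12064), left 1428 (from 2151) and 422 (from 757) called genes in BM in anti–IL-17A vs Vehicle and Combo vs anti–IL-17A, and in ATMs 3934 (from 6034) in Vehicle vs WT, 3335 (from 5417) and 3724 (from 6051) in GLP-1R agonist and anti–IL-17A vs Vehicle, and 2064 (from 3681), 1592 (from 3195) and 768 (from 2429) in Combo vs WT, the GLP-1R agonist and anti–IL-17A. Shares of higher calls in those 6 ATM comparisons became 46.5% (from 35.2%), 52.4% (from 65.6%), 51.2% (from 63.1%), 48.7% (from 32.8%), 46% (from 28.7%) and 53.8% (from 26.2%). Depth limited *Procr* in treated BM and *Mecom* in BM, at 4 to 61 reads a library.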
